A study of Mus musculus with 4 samples.

Results

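The erythroid regulators Gata1, Klf1, Zfpm1, Gfi1b, Nfe2 and Bcl11a, the transferrin receptor gene Tfrc and the haem synthesis genes Alad and Urod were examined for N6-methyladenosine (m6A) in mouse c-Kit+ foetal liver cells. These are 9 of 21938 protein-coding genes of GENCODE M21, a set defined by gene name and role in red cell formation. The set was chosen with earlier results of these data known. A peak was given to a gene when its summit lay in an exon of that gene. The 9 genes held 18 of 15635 peaks in replicate 1 and 14 of 14872 in replicate 2.

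m6A meRIP-seq was performed on 2 biological replicates. In this method fragmented RNA is pulled down with an antibody against m6A and sequenced beside input RNA that is not pulled down. All 4 samples (m6A IP replicates 1 and 2, input replicates 1 and 2) came from foetal liver cells on the C57BL/6 background, enriched for Kit with magnetic beads. The study's methods give the mice as Ythdf2CTL, the Ythdf2 fl/fl controls whose floxed allele also carries GFP fused to YTHDF2, so every sample shares that allele and no sample lacks Ythdf2. Peak lists of the IP replicates were analysed, and ages of the embryos, pooling and sex are not given in the sources used here. Bead enrichment leaves a mixed population, in which the share of erythroid cells and the amount of a transcript per cell cannot be told apart.

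m6A is placed on nascent RNA by a METTL3 and METTL14 methyltransferase, mostly at adenosines in the DRACH sequence context (D stands for any base but C, R for a purine and H for any base but G), of which GGAC is the best known core. It is read by proteins such as YTHDF2, which shortens the life of the transcripts it binds. The foetal liver is the main site of red cell production before birth, where GATA1 and KLF1 switch on globin, haem synthesis and membrane genes while iron is taken up through the transferrin receptor.

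The DRACH motif nearest to a summit is printed for a selection of peaks, at least one for each gene with a peak, chosen after the values were seen to show the sites described below. Sequences are 30 bases of the sense strand of the spliced GENCODE M21 transcript on GRCm38, from the 5′ to the 3′ end, with the 5-base DRACH motif in capitals.
Klf1, end of exon 1 across the junction to exon 2: ggacacccaggaGGACTtcctcaagtggtg
Zfpm1, exon 10: aggctccgtctcGGACAccttcaccacaca
Zfpm1, exon 10, strongest peak: cgacggccccatAGACCtgagcaagcggcc
Gfi1b, 3′ UTR: caaagccctcgtGGACAtggcaaaaccagg
Nfe2, alternative first exon, 5′ UTR: agggcttcggagAGACCgccggtgcgcccg
Bcl11a, exon 2: agctccagaaggGGACCacgaccttctcac
Bcl11a, 3′ UTR: taaaaaaaactaAGACAgacgttgccagcc
Tfrc, first exon, 5′ UTR: ctgctgcattgcGGACTgtagaggcgcttc
Alad, exon 11, upstream of the peak in exon 12: ctgctgtactggAGACCatgacggccttcc
Urod, across the junction of exons 2 and 3: cagagtttagggAAACCagggctgcccagg

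These lie at chr8:84902091-84902693 (+ strand, spanning an intron), chr8:122335672-122335701 (+), chr8:122336627-122336656 (+), chr2:28609748-28609777 (- strand), chr15:103255339-103255368 (-), chr11:24085376-24085405 (+), chr11:24166985-24167014 (+), chr16:32609004-32609033 (+), chr4:62510114-62510143 (-) and chr4:116993441-116993587 (-, spanning an intron). The marked motifs of Klf1 and Alad lie in the exon before that of the summit, across an intron and outside the genomic interval of the peak, and are near the summit only in the spliced transcript. Of the 10 sites shown, those of Klf1, Gfi1b, Bcl11a exon 2, Tfrc and the 2.55-fold Zfpm1 peak hold GGAC. The others match DRACH by AGAC or AAAC.

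A summit was found in both replicates for 6 of the 9 genes, Klf1, Zfpm1, Gfi1b, Nfe2, Bcl11a and Urod. Tfrc and Alad had a summit in replicate 1 only, and Gata1 had none in either. Thus 8 genes had a summit in replicate 1, where 34.5% of all protein-coding genes had one, and 6 in replicate 2, against 33.5%. For a summit in both replicates the share over all protein-coding genes was 30.9%. These shares are over all 21938 annotated genes, whether or not they are expressed in these cells. The counts of the 9 genes describe a set chosen with earlier results of these data known and were not tested against the background. A gene without a peak may be unmethylated or may have had too few reads for a peak to be called.

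Each peak carries a fold enrichment and a q-value from MACS2, both at the summit. The reads behind them were recovered from those deposited values and the p-value, and are given as IP reads over control reads. Control reads are the local background expressed as reads of the control library. Neither number is scaled between libraries, so their ratio differs from the fold enrichment.

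Gata1, the zinc finger factor that defines the erythroid lineage, had no peak on its 1902-nt transcript of 6 exons, although that transcript holds 9 GGAC and 32 DRACH motifs. The longest Gata1 exon, the last one, is 869 nt. In the full GENCODE M21 annotation, a further transcript of the gene (5 exons, starting upstream) has a 5′ UTR exon under a replicate 1 peak at chrX:7976319-7976666. This peak was 8.01-fold enriched with 28 IP reads over 3 control reads (−log10 q 16.7), its summit lay 8581 bp from the first base of the main Gata1 transcript, and no replicate 2 peak overlapped it. Gata1 therefore had no peak by the basic transcript set and an unshared one by the full set.

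Zfpm1 encodes FOG-1, the cofactor that GATA1 binds at many of its targets. All 7 of its peaks, 4 in replicate 1 and 3 in replicate 2, had the summit in exon 10, the 1820-nt last exon of a 3390-nt transcript. The strongest, at chr8:122336484-122336774 in replicate 1, was 4.64-fold enriched with 157 IP over 37.8 control reads and −log10 q 49.7. Its replicate 2 partner, with the summit 56 bp away, was 3.61-fold enriched with 162 over 42 reads and −log10 q 36.0, for a mean of 4.13 ± 0.733 (SD, n = 2). The nearest GGAC was 213 and 269 nt from these summits, and the AGACC shown above lay 11 nt after the summit in replicate 1 and 45 nt before it in replicate 2. The first peak of the exon had the same summit in both replicates, at 2.55-fold and 2.45-fold with 200 IP reads each over 89 and 77 control reads. A peak at the stop codon was 2.20-fold and 2.65-fold enriched. It was 59.3% and 46.6% exonic, and the remainder lay past the annotated end of the gene. A further peak, 2.86-fold with 154 over 60.8 reads, was called in replicate 1 only. The coding sequence around the strongest summit of replicate 1, a stretch at chr8:122336580-122336680 on the + strand, is shown because it carries the highest enrichment of the gene with a single DRACH, in capitals, and no GGAC.
Zfpm1, exon 10, around the strongest summit: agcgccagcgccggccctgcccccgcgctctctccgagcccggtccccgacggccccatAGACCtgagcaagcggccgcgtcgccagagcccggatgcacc

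Klf1 encodes the factor that activates the adult beta-globin promoter. Its peak over exon 2 had the same summit in both replicates, at codon 48 of 376, and was 2.56-fold enriched in replicate 1 (chr8:84902553-84902947, −log10 q 22.4, 165 IP over 73 control reads) and 2.28-fold in replicate 2 (chr8:84902555-84903083, −log10 q 16.4, 164 over 68 reads). This summit lay 2 nt after the first base of exon 2, and the A of the GGAC shown above, near the end of exon 1, was 13 nt before the summit in the spliced transcript. The other shared Klf1 peak spanned the stop codon and the 3′ UTR and had the lowest fold enrichment of all 32 peaks, 1.55-fold (197 IP over 145 control reads) and 1.47-fold (193 over 125). Its summits were 110 bp apart. Replicate 2 alone had a peak in exon 1 (3.03-fold, 69 over 21 reads) and one near codon 249 (2.31-fold, 125 over 51 reads), each with GGAC 9 nt from the summit. With both, 73.1% of the 1530-nt transcript was under a replicate 2 peak, against 42.5% in replicate 1.

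**Figure D1:**
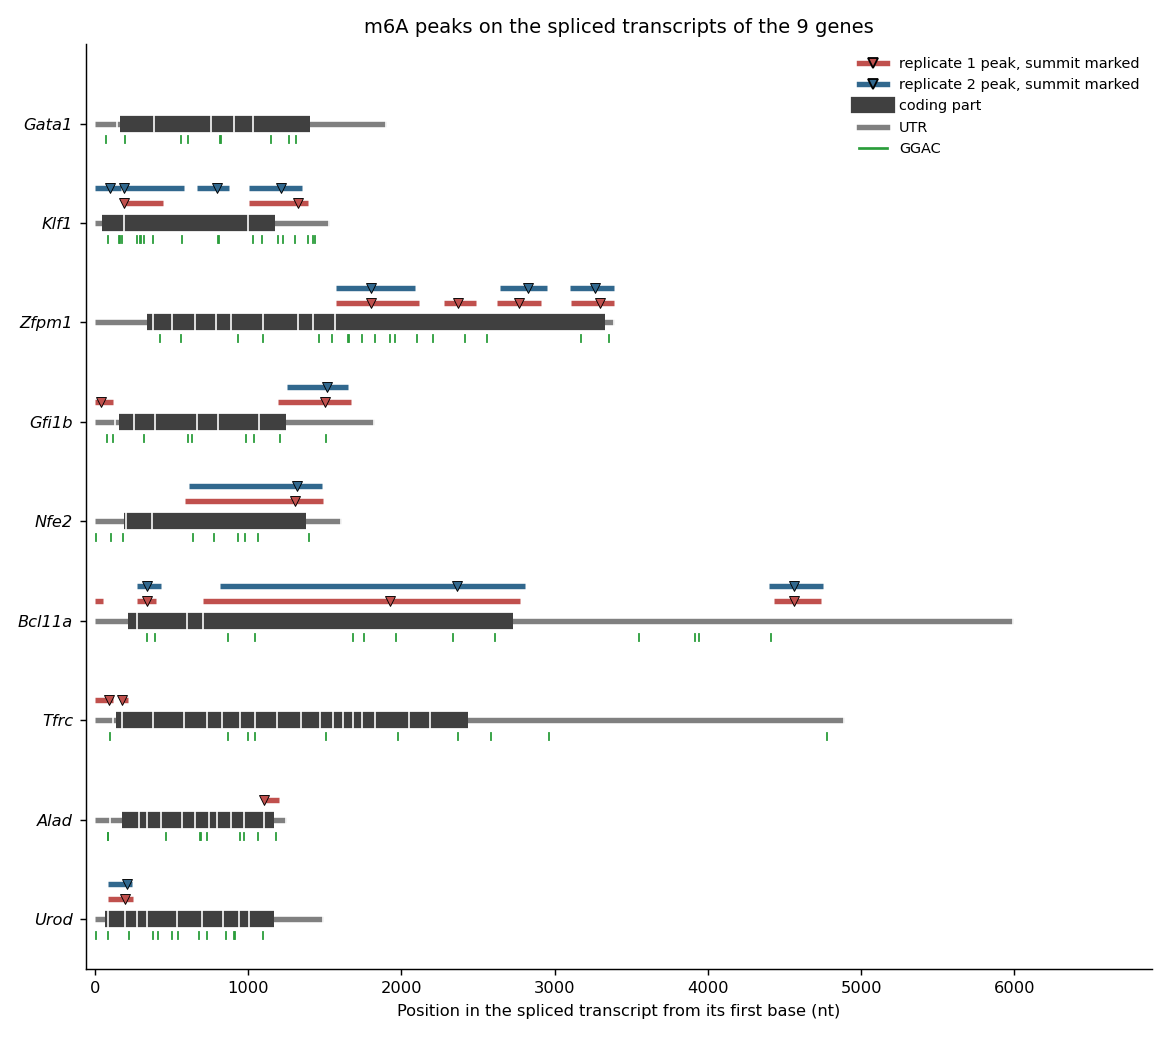
Peaks of replicate 1 (red) and replicate 2 (blue) along the spliced transcript with the longest coding sequence of each gene, in nt from its first base; triangles mark summits, thick bars the coding part, white lines exon boundaries and green ticks GGAC. Gata1 has no peak, the summits of Zfpm1 all lie in the last exon, and Tfrc and Alad have red peaks only. The Nfe2 peak in an alternative first exon is not on the transcript drawn, and the summit of the first Bcl11a peak lies outside it.

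Gfi1b and Nfe2 encode a zinc finger repressor that works with LSD1 and CoREST, and the large subunit of NF-E2, which binds the globin locus control region. In Gfi1b, a 3′ UTR peak was shared at 2.38-fold (180 IP over 86 control reads, −log10 q 21.1) and 2.03-fold (172 over 80, −log10 q 12.8). The summits lay 9 bp apart on either side of the only GGAC of the 575-nt 3′ UTR, 5 nt before it in the coding direction in replicate 1 and 4 nt after it in replicate 2. A second Gfi1b peak, in the first exon, was 4.08-fold enriched on 28 IP over 7 control reads and was absent from replicate 2. Nfe2 had the highest fold enrichment of all 9 genes, in the 5′ UTR of an alternative first exon. There it was 7.37-fold in replicate 1 (chr15:103255266-103255531, 45 IP over 6 control reads) and 7.21-fold in replicate 2 (chr15:103255280-103255540, 27 over 2.7). The mean was 7.29 ± 0.11 (SD, n = 2), and the A of AGACC lay within 2 nt of both summits. That SD is the spread of 2 values and leaves out the counting error of so few reads. These peaks were 65.4% and 61.3% exonic. The other Nfe2 peak covered most of the last exon, 902 and 870 bp wide, and peaked 72 and 58 nt before the stop codon at 2.50-fold and 2.91-fold, with 163 over 74 and 155 over 50 reads.

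Bcl11a encodes a repressor of embryonic globin genes that B cells also need. Of its 13 GGAC motifs, 9 in replicate 1 and 10 in replicate 2 lay under a peak. One peak, 2160 and 1992 bp wide, covered all or nearly all of the coding part of exon 4 and was 3.12-fold (166 IP over 60.2 control reads, −log10 q 31.6) and 3.63-fold enriched (163 over 42, −log10 q 36.6). Its summits were 437 bp apart, the largest such distance among the genes, so a single modified base is not resolved there. In exon 2 the summit was the same in both replicates, 4 nt before the A of GGACC, at 1.99-fold and 1.94-fold with 109 over 62 and 111 over 54 reads. A 3′ UTR peak, also with one shared summit, was 2.35-fold and 2.78-fold enriched, but it lies in an exon of the antisense gene 4930538E20Rik as well, and without strand in the lists it cannot be given to either. The peak at the 5′ end (4.54-fold, 71 over 17 reads) was in replicate 1 only.

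Tfrc encodes transferrin receptor 1, whose 3′ UTR holds the iron-responsive elements that control the stability of its mRNA. That 3′ UTR, 2458 nt with 3 GGAC and 44 DRACH motifs, had no peak. In replicate 1 a first-exon peak was 5.62-fold enriched on 11 IP over 1.3 control reads, with GGAC 6 nt from the summit, and a peak at exon 3 was 2.37-fold enriched on 140 over 67 reads (−log10 q 16.1). Of the latter's 201 bp, 43 were exonic and the remainder intronic. No Tfrc peak was called in replicate 2.

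Alad joins aminolaevulinate molecules into porphobilinogen and Urod decarboxylates uroporphyrinogen. The Alad peak of replicate 1 (chr4:62509217-62509450) was 2.60-fold enriched with 149 IP over 65 control reads and −log10 q 20.7, its summit on the first base of exon 12. Replicate 2 had a peak over the same bases (chr4:62509223-62509450) of 2.60-fold with 149 over 54 reads and −log10 q 19.3, whose summit fell 2 bp outside that exon. By overlap of peak and exon in place of the summit, Alad was thus found in both replicates and the count rose to 7 of 9, where the share over all protein-coding genes was 32.6%. The Urod peak lay over exons 2 and 3 and was 2.07-fold enriched in replicate 1 (113 IP over 62 control reads, −log10 q 9.15) and 1.94-fold in replicate 2 (113 over 55, −log10 q 6.97), with summits 13 bp apart in the 80-nt exon 3.

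Summits of Klf1, Tfrc, Alad and Urod thus lay within 2 nt of the first base of a later exon in replicate 1, 4 of the 14 summits these genes had in later exons. Over all summits placed in later exons this held for 0.918%. In replicate 2 it was 1 of 12 (Klf1), against 0.959%. This was looked at after the summits had been seen. MACS2 extends reads along the genome and not along the spliced transcript, and the part of this in the position of the summits was not tested. The peaks of Urod were 41.4% and 40.8% exonic, and that of Alad 40.2%.

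The genes with long exons had the largest part of the transcript under peaks. In replicate 1 this was 56.2% for Nfe2, 42.7% for Bcl11a, 39.1% for Zfpm1 and 32.5% for Gfi1b, beside 42.5% for Klf1, and their longest exons ran from 754 to 5284 nt. It was 11% for Urod, 7.54% for Alad, with no exon over 187 nt, and 3.27% for Tfrc. Gata1 and Tfrc do not follow that order, with last exons of 869 and 2701 nt that held no peak. In replicate 1, Zfpm1 and Bcl11a had 3 or more peaks, as did 13.4% of the protein-coding genes with a summit. In replicate 2, Klf1, Zfpm1 and Bcl11a did, beside 13.1%.

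Of the 32 peaks, 25 overlapped a peak of the other replicate (78.1%, exact Clopper-Pearson 95% interval 60.03 to 90.72, counting error only), beside 85.5% of all exonic peaks. They formed 13 pairs, one of them that of Alad. In log2 fold enrichment the 13 pairs differed with an SD of 0.20. All 13 differed by less than 0.47, the SD over 11524 one-to-one pairs of all peaks, in exons or not. The largest ratio among the 13 was 1.29, at the strongest Zfpm1 peak. Replicate 2 was higher in 5 of the 13 and replicate 1 in 8. Of the 11524 pairs, 8422 also differed by no more than that SD. Median IP reads were 151 and 155 at the peaks of these genes, against 57 in each replicate over all peaks. The part of read number in the small differences was not tested. Of the 7 unshared peaks, 4 lay in first exons. In these genes 1 of 4 first-exon peaks was shared in replicate 1 and 1 of 2 in replicate 2, against 12 of 14 and 11 of 12 in later exons. Over all genes, 73.2% and 72.4% of first-exon peaks and 87.1% and 90.01% of later-exon peaks were shared. First-exon peaks rested on fewer reads, with 1.3 to 17 control reads in replicate 1 for these genes against 34 to 145 in later exons, and the part of read number in their loss was not tested.

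**Figure D2:**
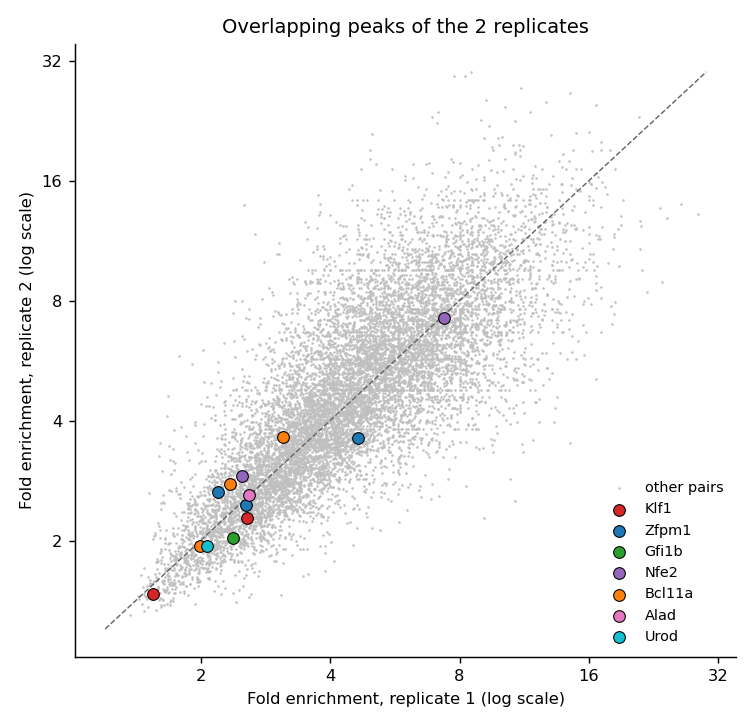
Fold enrichment of overlapping peaks in replicate 1 (x axis) and replicate 2 (y axis), both log scaled, with the dashed line at equality; grey points are all one-to-one pairs, in exons or not, and coloured points the 13 pairs of the genes studied (the Alad summit of replicate 2 lies 2 bp outside its exon). The coloured points stay near the line, with a largest ratio of 1.29, and only Nfe2 lies above 5-fold.

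Fold enrichment was low at these genes. Its median was 2.56 in replicate 1 and 2.55 in replicate 2, against 4.18 and 4.39 over all exonic peaks, and 14 of 18 and 13 of 14 peaks lay below that median. They also had high background: 62.0 and 52.5 control reads at the median, against 17 and 13, with 14 of 18 and 13 of 14 above the exonic median. With exonic peaks divided by control reads into 4 equal sets, the set with the most reads held 13 and 11 of the peaks, and the median fold enrichment over that whole set was 2.54 and 2.55. IP reads at the summit crowded below 200. Only 22 of 12710 exonic peaks in replicate 1 and 19 of 12204 in replicate 2 exceeded that number, and peaks over more than 100 control reads reached no more than 3.05-fold and 2.16-fold. Of the peaks studied here, 11 of 18 and 8 of 14 were at or above the 90th percentile of IP reads (140 and 134), with the highest at 200 in each replicate. How duplicate reads were handled is not given in the sources used here, and the part of read number in the low fold enrichment was not tested. Fold enrichment is therefore not compared between these genes as a degree of methylation.

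**Figure D3:**
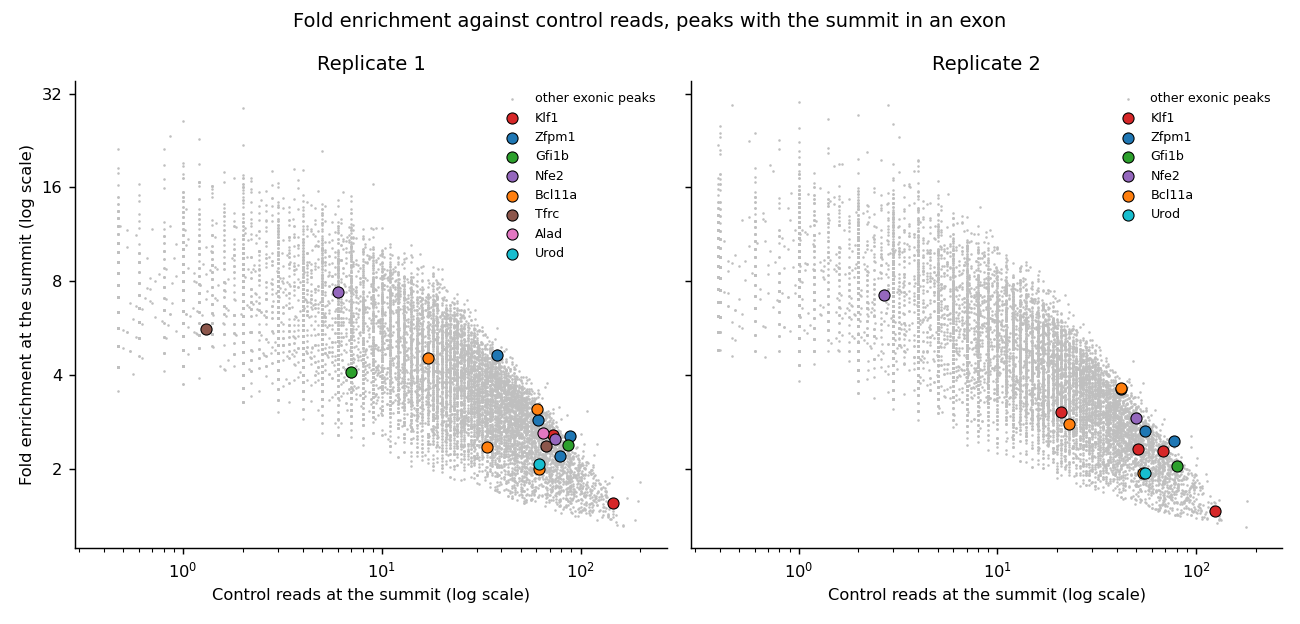
Fold enrichment (y axis, log scale) against control reads at the summit (x axis, log scale) for exonic peaks of replicate 1 (left) and replicate 2 (right), with the peaks of the genes studied in colour. Fold enrichment falls along an upper edge as control reads rise, and most coloured points sit at the right, with the 5′ peaks of Nfe2, Gfi1b and Tfrc at the left; in replicate 2 a Zfpm1 point lies beneath that of Bcl11a at 42 control reads, and a Bcl11a point beneath that of Urod.

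By position in the transcript, 6 of 18 summits in replicate 1 and 4 of 14 in replicate 2 lay within 200 nt of the start codon, a class that held 14.7% and 15.4% of all placed summits. The stop codon had 4 and 3, where it held 30.7% and 29.8% of all placed summits. The 3′ UTR beyond it had 2 and 2 (Gfi1b and Bcl11a). GGAC was found on the sense strand within 50 nt of 11 of 18 and 9 of 14 summits, 61.1% (exact interval 35.7 to 82.7) and 64.3% (35.1 to 87.2). It was found at 56.1% and 56.0% of all placed summits and at 35.2% of all positions of the 9 transcripts. DRACH, with which GGAC overlaps whenever A, C or T follows it, was within 50 nt of 14 of 18 and 12 of 14 summits, beside 93.3% of all placed summits in each replicate and 81.3% of positions. For DRACH these were 77.8% (exact interval 52.4 to 93.6) and 85.7% (57.2 to 98.2). The intervals of the motif shares include the values over all placed summits. Both DRACH intervals and the GGAC interval of replicate 2 also include the share over all positions of the 9 transcripts. The intervals treat peaks of the same gene as independent, which they are not, so no conclusion is drawn from them.

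Among 8 enzymes of haem synthesis, 4 had a summit in both replicates, beside 30.9% of all protein-coding genes. Alas1, the housekeeping form of the enzyme that starts the pathway, was 3.86-fold and 3.91-fold enriched in the 5′ UTR, and Cpox, coproporphyrinogen oxidase, 4.95-fold and 5.61-fold. Uros and Urod, which act one after the other, were lower, with Uros at 2.07-fold and 1.85-fold. Alad and Fech had a summit in replicate 1 only. Alas2, the erythroid form of the first enzyme, and Ppox had none. By overlap of peak and exon Alad made it 5 of the 8 (32.6% of all protein-coding genes), and by the full annotation (31.6%) Ppox did, through a retained intron that is also an exon of B4galt3 and cannot be given to either gene.

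Of 16 genes of iron and haem transport, 10 had a summit in both replicates, where the share over all protein-coding genes was again 30.9%, among them Tfr2, which encodes a second transferrin receptor, the ferroportin gene Slc40a1 and the mitoferrin gene Slc25a37. Ireb2, which encodes the iron regulatory protein IRP2, was 4.85-fold enriched in replicate 1 and 2.95-fold in replicate 2. One of the 10, the haem exporter gene Flvcr1, had its summit in an exon of another gene as well in both replicates, so its peak is uncertain. Of 21 erythroid transcription factors and cofactors, 16 had a summit in both (76.2%, beside the same 30.9%). The lists were chosen with earlier results known, so these shares are descriptions. By the most significant peak, Bach1, a haem-sensing repressor, was 8.09-fold and 7.43-fold enriched in replicates 1 and 2, and the corepressor gene Cbfa2t3 6.45-fold and 9.04-fold. The GATA1 partners Tal1, Lmo2, Ldb1 and Lyl1 were all found in both. Gata1, Myb and E2f4 had none. Of 18 globin and red cell protein genes, 10 had a summit in both, beside the same 30.9%. A caution is that reads of the near-identical globin copies may be split or shared among them. The most significant peak per gene had a median fold enrichment of 3.30 and 3.40 in the erythroid factors, over 49.0 and 37.6 control reads. In 10 stem cell factors it was 4.70 and 5.78 over 19 and 15 control reads. In 10 myeloid and lymphoid factors it was 4.89 and 6.47 over 23.4 and 9. Over all protein-coding genes with a summit it was 4.49 and 4.76 over 19 and 14. Of the stem cell factors 8, and of the myeloid and lymphoid factors 7, had a summit in both replicates, beside the same 30.9%.

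**Figure D4:**
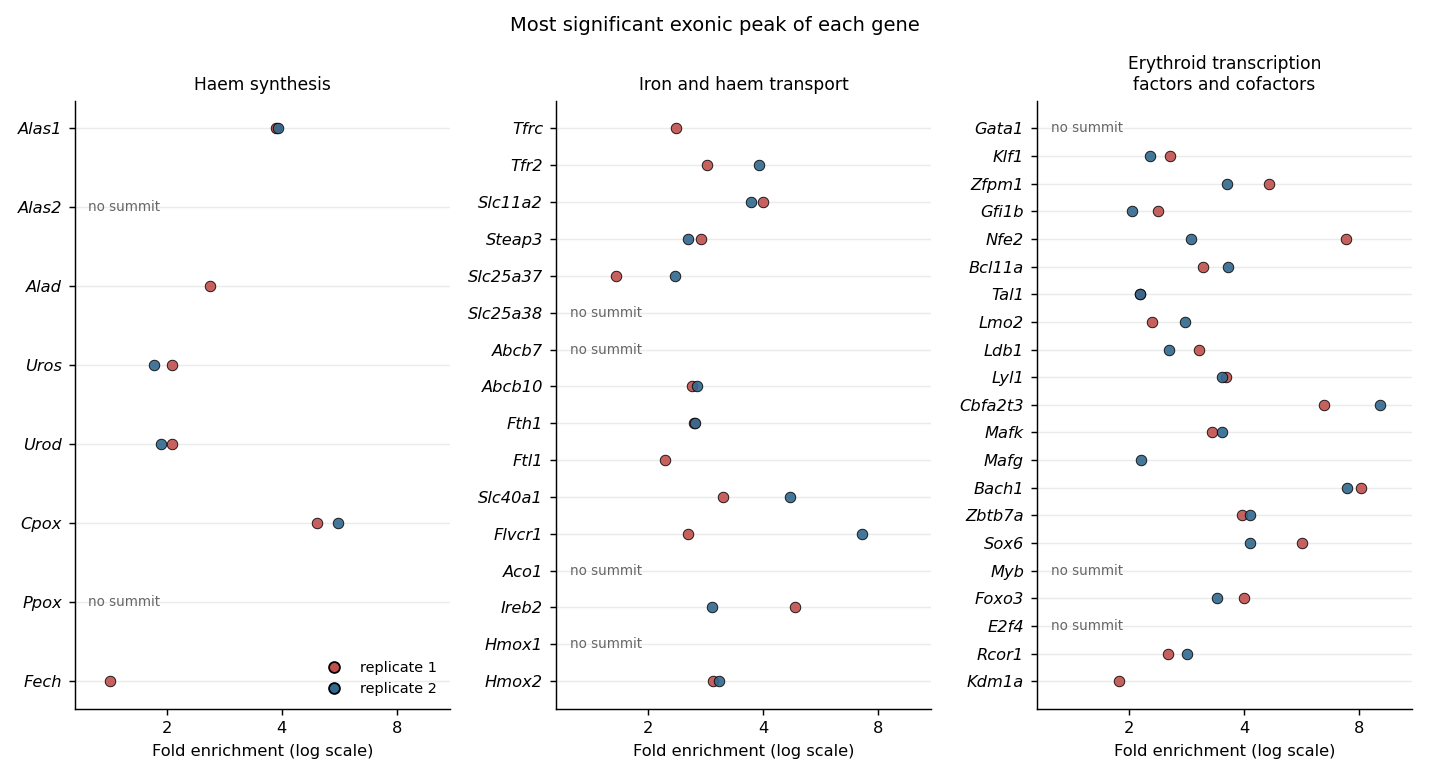
Fold enrichment (x axis, log scale) of the exonic peak with the highest −log10 q of each gene in replicate 1 (red) and replicate 2 (blue), for haem synthesis, iron and haem transport, and erythroid transcription factors. Genes without a summit in either replicate are marked; the most significant peak need not be the same peak in both replicates, as for Nfe2, where it is the 5′ UTR peak in replicate 1 and the last-exon peak in replicate 2.

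As a check of the cell type, peaks were looked for in marker genes, where a peak needs both the transcript and the mark. The erythroid markers Hbb-bt, Hba-a1 and Epor and the progenitor markers Cd34 and Cd48 had summits in both replicates, whereas Kit and Flt3 had none. The megakaryocyte markers Itga2b, Gp1ba and Gp9 also had summits in both, as did 1 of 5 hepatoblast markers (Apoa1), 1 of 5 macrophage markers (Csf1r, whose summit also lies in an exon of another gene) and 1 of 4 endothelial markers (Kdr). Summits in both replicates were thus found for 3 of 5 erythroid, 3 of 4 megakaryocyte and 2 of 4 stem and progenitor markers. Some markers of other cells of the liver had them too. Since a peak needs the mark as well as the transcript, these counts do not identify the cells. Over all protein-coding genes the share with a summit in both replicates was 30.9%.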

How the data were processed

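m6A meRIP-seq peak lists of 2 IP replicates were analysed; the 2 input samples were not analysed here. Per the labels and the study's methods, the authors aligned reads to GRCm38 (mm10) with HISAT2 and called peaks in each replicate with MACS2 (version 2.1.1.20160309, nomodel flag). IP samples are labelled total RNA and input samples polyA RNA. The part of this difference in peaks that lie largely outside exons was not tested. The threshold, genome size, control library and treatment of duplicates are not given in the sources used here. Values of −log10 q reached down to 1.31 and 1.30 in the respective lists. The deposited fold enrichment is the ratio of IP signal to local background at the summit, and the deposited −log10 p and −log10 q are those of MACS2 at that base. The deposited score is a multiple of −log10 q and was not used further.

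Exons were those of the GENCODE M21 basic set (55413 genes), and positions and motifs were taken on the transcript with the longest coding sequence that held the summit. IP and control reads at each summit were recovered from the ratio and the −log10 p under the formulas of MACS2. Whole IP reads matched 100% of peaks within 0.0005 in −log10 p, after scaling IP by 0.952 in replicate 2. In replicate 1 each control read added 0.8735 to the background. The formula for fold enrichment also adds 1 to the IP signal and to the background. On peaks simulated under the same formulas with whole control reads, IP reads were recovered for 3000 of 3000 with the control scaled. With the IP scaled the number was 2999 of 3000. The simulation assumed those formulas and held no fractional control reads, so it checks only the arithmetic of the recovery. Library totals are not held in peak lists, so depth is given as reads at the summit. Peaks were shared at an overlap of at least 1 bp. Python 3.11.15, NumPy 2.4.6, SciPy 1.17.1 and matplotlib 3.10.9 were used. With 1 group of samples no test between groups exists, and replicates show the spread between these 2 samples only.

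Some list genes are not reported here. The members and gene lists were chosen with earlier results of these data known. All 9 members are named, and from each list the genes with a summit in both replicates could be named with their most significant peak; those with a summit in 1 or neither replicate are named for completeness, after their values were seen. Alternatives were other exon rules and annotation sets, minimum q and fold enrichment, motif and codon windows, summit distance, and each replicate alone.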

Additional observations from a re-analysis of the deposited data

Results flagged for a closer look

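A few peaks at these genes lay outside the exons counted above. Upstream of Bcl11a, 1269 and 1216 bp from its nearest exon and in no annotated gene, a peak was called in both replicates, 5.12-fold enriched on 22 IP reads in replicate 1 and 5.72-fold on 23 in replicate 2. The Zfpm1 region had unshared upstream peaks, 4.58-fold at 4989 bp in replicate 1 and 4.06-fold at 430 bp in replicate 2. The Alad peak of replicate 2, 2.60-fold enriched, had its summit 2 bp outside the exon. At Gata1 the peak in an exon of the full annotation was 8.01-fold enriched in replicate 1 alone. Their origin was not tested.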

How the results depend on the processing

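Of 57 alternative values computed, 42 stayed within the limits set for a change and 15 moved. These limits differed between results. Without replicate 2, the rise from 6 to 8 genes and from 4 to 6 haem synthesis genes counted as no change. The fall of the stop codon share from 21.9% to 19.4% counted as a move. The 42 is therefore not a measure of stability. A minimum fold enrichment of 4 moved most results: the genes with a summit in both replicates fell from 6 to 1 (Nfe2, with 16.9% of all protein-coding genes), haem synthesis genes from 4 to 1, erythroid transcription factors from 16 to 6, peaks of the 9 genes from 32 to 6 and the shared percentage from 78.1 to 33.3. Fold enrichment is lowest where control reads are many, so this minimum removes peaks over a high background first. With summits required within 100 bp, 65.6% were shared. GGAC was near 43.8% of summits within 25 nt and 81.2% within 100 nt (62.5% within 50 nt), and DRACH near 62.5% and 96.9% (81.2%). The stop codon held 21.9% of summits, 18.8% with a window of 100 nt, 34.4% with 400 nt, and 19.4% with −log10 q of at least 5. Using one replicate alone gave 6 to 8 of the 9 genes, 4 to 6 haem synthesis genes, 17 erythroid transcription factors and 14 to 18 peaks; without replicate 2, Alad and Fech were added to the haem synthesis genes.

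No paired analysis was possible because the input samples have no peak list here and the results come from no test. Resolution is limited by peak width, and low-read peaks, such as the 11 reads at the first exon of Tfrc, by counting error.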
